A study of Mus musculus with 8 samples.

Results

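Schwann cell and nerve genes were followed through skin of mouse embryos labelled as mutant for Cyp26b1, an enzyme that degrades retinoic acid. The group holds 8 genes (Sox10, Ngfr, Ncam1, Cdh19, S100b, Mbp, Prx and Pmp22), chosen by name as genes of Schwann cells and nerves, and all 8 were found among the 21882 gene symbols of each deposited table. Their 18 listed RefSeq transcripts were summed per symbol.

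Schwann cells are the glia of peripheral nerves and derive from the neural crest. In skin they accompany sensory and autonomic axons through the dermis, and some of their precursors give rise to melanocytes. Sox10 is the transcription factor that keeps the lineage, immature Schwann cells carry the neurotrophin receptor Ngfr and the adhesion molecule Ncam1, and cells that wrap axons in myelin switch on the myelin proteins Mbp, Pmp22 and periaxin (Prx). None of these genes belongs to Schwann cells alone: melanocytes also use Sox10 and S100b, dermal mesenchyme uses Ngfr and Pmp22, muscle uses Ncam1, and lens fibres use Prx.

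The libraries came from C57BL/6 embryos. At embryonic day 16.5 (E16.5), 2 libraries of whole skin carried the genotype Cyp26b1-/- and 2 were wild type. The skin of E18.5 embryos (embryonic day 18.5) had been separated, giving 1 En1cre;Cyp26b1f/- and 1 Cyp26b1f/+ library of dermis and the same of epidermis. En1cre recombines in cells whose lineage has expressed Engrailed 1, which includes much of the trunk dermis; peripheral glia come from the neural crest, and the labels do not say in which nerve cells it acted. The f/- animals also have 1 working allele fewer than the f/+ animals in cells that En1cre did not reach, and no control library is labelled as carrying En1cre. The E16.5 columns each pool 2 libraries and each E18.5 column is 1 library, so no spread between animals could be computed. The series' design speaks of duplicates, while the headers of the E18.5 tables name 1 library for each column, so each E18.5 value is read here as 1 library. The labels do not say whether same-group libraries came from separate embryos. The titles of the dermis and epidermis libraries carry different numbers, so the tissues are not labelled as coming from the same embryos. Differences between the tissues therefore cannot be told apart from differences between embryos. Values are FPKM (fragments scaled to transcript length and library size), a level per length that can be set side by side between genes, and the read depth behind them is unknown.

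Summed Cyp26b1 was not lower in the mutant columns, at 58.2 FPKM in Cyp26b1-/- skin against 34.9 FPKM in wild-type skin, 102 FPKM in mutant dermis against 54.2 FPKM in control dermis, and 13.7 FPKM in mutant epidermis against 4.97 FPKM in control epidermis. Because the position of the deletion within the gene is not stated, these whole-transcript values do not check the genotype, and each direction rests on the labels. The median gene with at least 1 FPKM was shifted by 0.43 in E16.5 skin, by 0.12 in E18.5 dermis and by -0.18 in E18.5 epidermis, as log2 folds on the log2(FPKM + 1) scale. Folds of genes are therefore given as log2((mutant FPKM + 1)/(control FPKM + 1)) minus that median, and called relative log2 folds. The pseudocount of 1 understates the change of low genes.

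Across the 6 columns the 8 genes covered a wide range of levels. Pmp22, a membrane protein of compact myelin that fibroblasts also make, was the highest of the 8 at E16.5, at 159.6 FPKM in Cyp26b1-/- skin and 138 FPKM in wild-type skin. Ngfr, Ncam1, Mbp and Sox10 followed, between 10.2 and 36.3 FPKM in Cyp26b1-/- skin and between 8.8 and 23.9 FPKM in wild-type skin. The myelin scaffold gene Prx, the calcium-binding protein gene S100b and Cdh19, a cadherin of Schwann cell precursors, were the lowest, at 4.62, 3.15 and 1.33 FPKM in Cyp26b1-/- skin and 4.19, 2.71 and 0.88 FPKM in wild-type skin. The order of the 8 genes was the same in both E16.5 columns. In the epidermis Mbp was the highest and Cdh19 was listed at 0 in both libraries.

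**Figure D1:**
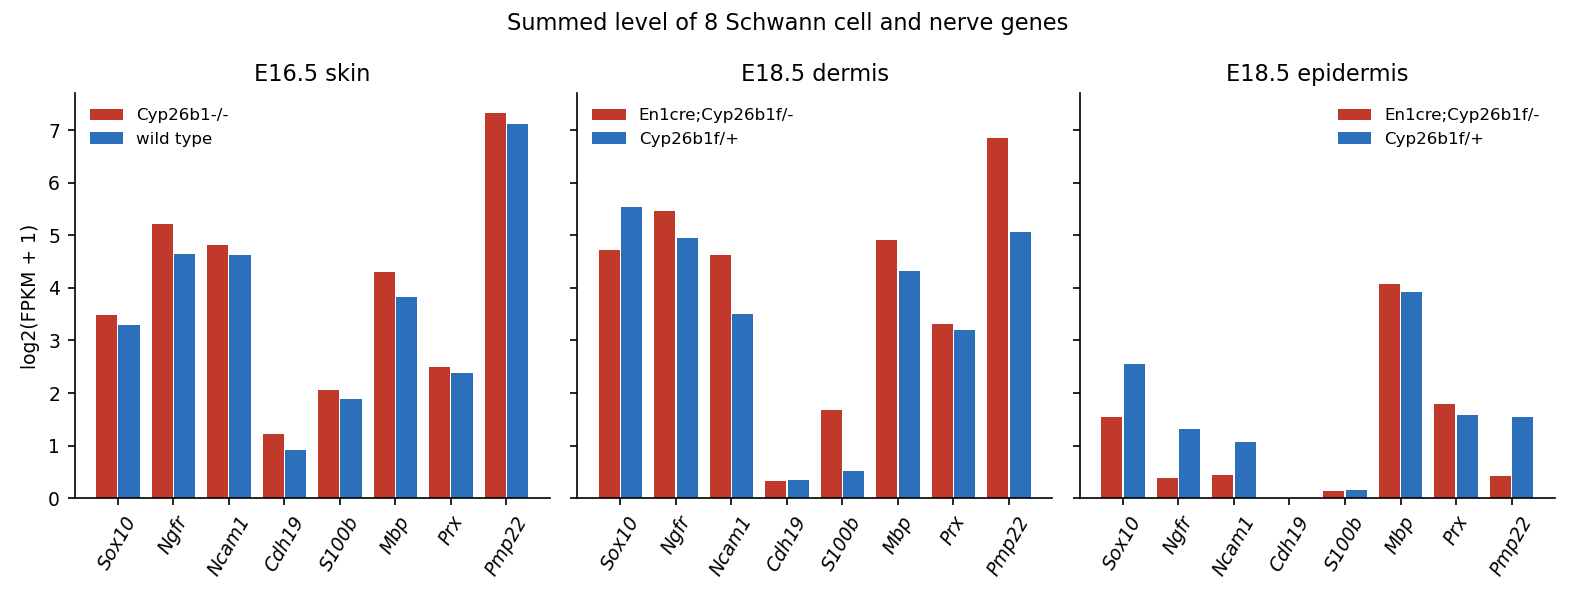
Level of each of the 8 genes as log2(FPKM + 1), summed over transcripts, in mutant (red) and control (blue) columns of E16.5 whole skin, E18.5 dermis and E18.5 epidermis. The 2 bars of a gene are close together in E16.5 skin, Pmp22 stands at 115 FPKM in mutant and 32.5 FPKM in control dermis, and only Mbp exceeds 10 FPKM in the epidermis.

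Other genes of the Schwann cell lineage were measured in the same columns. Mag, an adhesion protein of myelinating glia, stood at 0.53 FPKM in Cyp26b1-/- skin and 0.27 FPKM in wild-type skin, and at 3.04 FPKM in mutant dermis and 1.31 FPKM in control dermis. It was 0.15 FPKM in mutant epidermis and 0.23 FPKM in control epidermis. Cnp, an enzyme abundant in myelinating glia, stood at 28.9 FPKM in mutant dermis and 17.8 FPKM in control dermis, and at 0.75 FPKM in mutant epidermis and 2.81 FPKM in control epidermis. Of 10 central glia markers, 6 were tested at E16.5 and 4 rose relative to the median gene, where 8.05% of all tested genes did, with a summed level of 117 FPKM in Cyp26b1-/- skin and 39.2 FPKM in wild-type skin. Most of that sum was Gjb6, at 96.4 FPKM in Cyp26b1-/- skin and 28.6 FPKM in wild-type skin. The others were Sox9, Slc1a2 and Olig2, and epidermis and hair follicles are known to use Gjb6 and Sox9. The oligodendrocyte genes Mog, Mobp and Opalin did not exceed 0.12 FPKM in any column. These values of Mag and Cnp were named after they were seen. Of 34 other Schwann cell and myelin genes, 26 passed 1 FPKM in dermis, with 16 higher and 10 lower relative to the median gene. Erbb3 was among the lower ones, at 13 FPKM in mutant and 27.4 FPKM in control dermis. In epidermis Erbb3 had 62.1 FPKM in the mutant and 48.8 FPKM in the control. Mbp did not follow Mag and Cnp, at 15.8 FPKM in mutant and 14.1 FPKM in control epidermis. Cdh19 was the weakest of the 8 markers in every column.

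The stretches before the transcription starts of Pmp22, S100b and Prx are shown because the first pair differed by over 2-fold in E18.5 dermis and Prx, also a myelin gene, did not. They are the 250 bases before the start in the RefSeq table (GRCm38.p6), 5′ to 3′ on the gene's strand. Capitals mark a match, on either strand, to an EGR motif (GNGTGGGNG) or a retinoic acid receptor half-site (AGGTCA or AGTTCA). No SOX motif (ACAAAG or ACAATG) and no direct repeat of half-sites spaced by 5 bases, with any base allowed at the third position of each half-site, was matched in the windows of these genes. Pmp22 has 4 listed starts, of which the 2 farthest upstream are shown, at chr11:63128732-63128981 and chr11:63131207-63131456, both on the plus strand. S100b lies at chr10:76253586-76253835 and Prx at chr7:27499074-27499323, both on the plus strand.
Pmp22 start 1: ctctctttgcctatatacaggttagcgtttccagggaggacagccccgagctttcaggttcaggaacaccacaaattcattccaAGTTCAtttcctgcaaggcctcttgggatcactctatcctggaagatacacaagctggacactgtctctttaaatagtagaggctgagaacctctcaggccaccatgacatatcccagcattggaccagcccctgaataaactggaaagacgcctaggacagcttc
Pmp22 start 2: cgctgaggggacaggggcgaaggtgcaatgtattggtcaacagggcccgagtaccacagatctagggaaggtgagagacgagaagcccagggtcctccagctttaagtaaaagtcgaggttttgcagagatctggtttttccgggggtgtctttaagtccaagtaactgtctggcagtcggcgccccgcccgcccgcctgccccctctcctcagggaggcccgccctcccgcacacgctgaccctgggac
S100b: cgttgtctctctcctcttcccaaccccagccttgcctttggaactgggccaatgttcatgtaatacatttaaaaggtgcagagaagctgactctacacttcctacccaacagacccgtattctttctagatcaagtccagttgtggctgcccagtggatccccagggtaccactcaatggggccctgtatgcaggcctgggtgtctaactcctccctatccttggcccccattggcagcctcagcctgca
Prx: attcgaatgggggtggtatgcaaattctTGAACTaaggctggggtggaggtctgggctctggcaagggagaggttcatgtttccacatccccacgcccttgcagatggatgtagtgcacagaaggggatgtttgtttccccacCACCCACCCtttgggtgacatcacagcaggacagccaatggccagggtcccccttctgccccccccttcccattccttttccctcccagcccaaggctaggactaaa
The first Pmp22 window held a half-site 166 bases before the start. The Prx window held an EGR match 107 bases and a half-site 222 bases before the start, and the S100b window held no match. Among 32851 windows of that length in the table, 24.2% held a half-site, 12.7% an EGR match, 25.2% a SOX match and 0.198% the spaced repeat. Ngfr also has an entry, with no match. Sox10, Ncam1, Cdh19 and Mbp had no entry, so no window of theirs was searched for motifs.

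The E16.5 comparison asks how the genes differ in whole skin when the enzyme is missing from the entire embryo. Relative to the median gene, 0 of the 8 genes rose and 1, Mbp, fell, where 8.05% of 16303 tested genes rose and 10% fell. The test was the authors' Cuffdiff statistic recomputed after subtracting a median deposited log2 fold of 0.48. That median was taken over 16368 tested transcripts with at least 1 FPKM in either column. Benjamini-Hochberg adjustment, called at 0.05, was over tested transcripts of any level. The relative log2 folds of the 8 genes ran from -0.31 to 0.16 with a median of -0.22. On the authors' own scaling the median was 0.20, so the sign of 6 of the 8 genes depends on the scaling. None of the 8 reached a 2-fold relative difference, where 1.67% of 14154 genes were 2-fold higher and 2.85% were 2-fold lower. By the q of the authors' deposited table, 1 of the 8 genes was called higher (Ngfr), 0 were called lower and Mbp was called in both directions, where 54.6% of the 16303 genes were called higher and 3.46% lower.

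The regulator and surface genes were close to the bulk of skin transcripts. Sox10 had 10.2 FPKM in Cyp26b1-/- skin and 8.8 FPKM in wild-type skin, a relative log2 fold of -0.23. The log2 fold in the authors' deposited table was 0.22 (SE 0.17 implied by the statistic), and the adjusted p of the recentred Cuffdiff statistic was 0.35. Sox10 lies on chromosome 15 from 78985343 to 78994920 (mm9).

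Ngfr, the low-affinity neurotrophin receptor, had 36.3 FPKM in Cyp26b1-/- skin and 23.9 FPKM in wild-type skin. The 2 pooled values differ by a log2 fold of 0.60 in the authors' deposited table (SE 0.14, q = 0.0001), of which 0.13 remained above the median transcript (adjusted p = 0.63 after recentring). Ngfr lies on chromosome 11 from 95430140 to 95449012 (mm9). Its call therefore came from the authors' scaling and was absent after recentring.

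Ncam1, a homophilic adhesion molecule of neural cells and muscle, is listed with 3 transcripts, which summed to 27 FPKM in Cyp26b1-/- skin and 23.5 FPKM in wild-type skin. NM_001081445 made up most of it, at 21.3 FPKM in Cyp26b1-/- skin and 18.8 FPKM in wild-type skin, and its adjusted p from the authors' statistic was 0.133 after recentring. S100b had a relative log2 fold of -0.27 and Cdh19 of -0.12. Neither was called on either scaling. In mm9, Ncam1 lies on chromosome 9 from 49310251 to 49607174, S100b on chromosome 10 from 75716581 to 75724064 and Cdh19 on chromosome 1 from 112785772 to 112873949.

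Of the myelin genes, Pmp22 (mm9 chromosome 11, 62945012 to 62973048) and Prx (mm9 chromosome 7, 28284343 to 28305060) were likewise not called. Pmp22 had a relative log2 fold of -0.21 (adjusted p = 0.209 from the authors' recentred statistic). Prx had 4.62 FPKM in Cyp26b1-/- skin and 4.19 FPKM in wild-type skin, with 4.12 FPKM in Cyp26b1-/- skin and 3.68 FPKM in wild-type skin from NM_198048. The same Cyp26b1-/- column held lens transcripts, with 10 of 10 lens markers higher and a summed level of 1747 FPKM against 8.63 FPKM in wild-type skin. Their part in the Prx values was not tested.

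**Figure D2:**
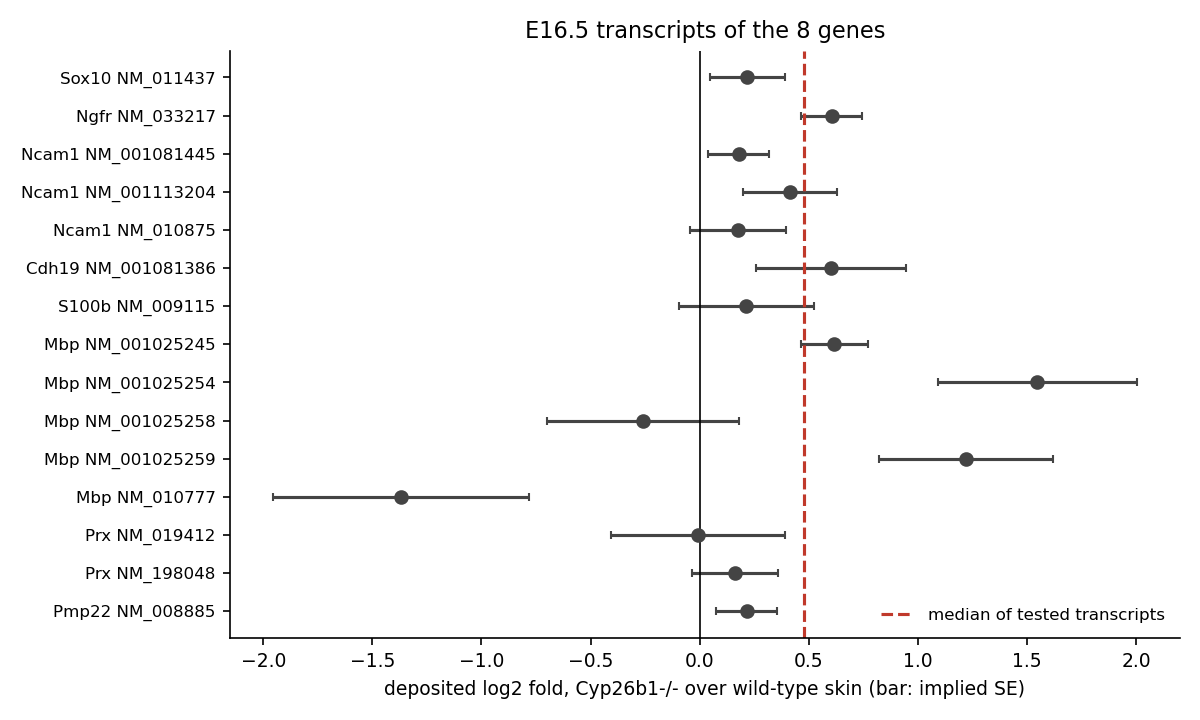
Deposited log2 fold of Cyp26b1-/- over wild-type whole skin at E16.5 for 15 of the 18 listed transcripts, with bars for the SE implied by the authors' statistic. The solid line marks 0 and the dashed line the median of tested transcripts with at least 1 FPKM in either column, 0.48. Transcripts with no SE or with an SE above 5 are left out. The 5 Mbp transcripts run from -1.37 to 1.55, and those of the other 7 genes from -0.01 to 0.60.

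Mbp, the main cytoplasmic protein of compact myelin, gave the call through its minor transcripts. Summed over 8 transcripts it had 18.6 FPKM in Cyp26b1-/- skin and 13.1 FPKM in wild-type skin, a relative log2 fold of 0.05. NM_010777 fell to 0.34 FPKM in Cyp26b1-/- skin, against 0.87 FPKM in wild-type skin (adjusted p = 0.0141 from the authors' recentred statistic). NM_001025255 was listed at 0 in Cyp26b1-/- skin and at 0.21 FPKM in wild-type skin and kept its q of 0.0185 from the authors' deposited table. The most abundant, NM_001025245, had 12.3 FPKM in Cyp26b1-/- skin and 8 FPKM in wild-type skin and was not called (adjusted p = 0.63 from the authors' recentred statistic). The summed gene and the called transcripts thus did not move the same way, and with the limit on the adjusted p set to 0.01, 0 of the 8 genes were called.

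The transcript makeup of Mbp differed between the tissues. The Mbp gene is known to hold a second, longer transcription unit, called golli, that is used outside myelin-forming cells, and the tables do not say which accession belongs to it. In the epidermis NM_001025245 had 13.6 FPKM in the mutant library and 12.2 FPKM in the control library, and the other 7 transcripts summed to 2.29 FPKM in the mutant and 1.89 FPKM in the control. In the dermis the same transcript had 2.06 FPKM in the mutant and 1.14 FPKM in the control, and the other 7 summed to 27 FPKM in the mutant and 17.8 FPKM in the control. Thus NM_001025245 made up 85.5% of Mbp in mutant epidermis and 86.6% in control epidermis, and 7.08% in mutant dermis and 6.02% in control dermis. Whole skin at E16.5 lay between, with 65.8% in Cyp26b1-/- skin and 61.1% in wild-type skin. The split of reads among overlapping transcripts is Cuffdiff's estimate, and no test was possible between single libraries.

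**Figure D3:**
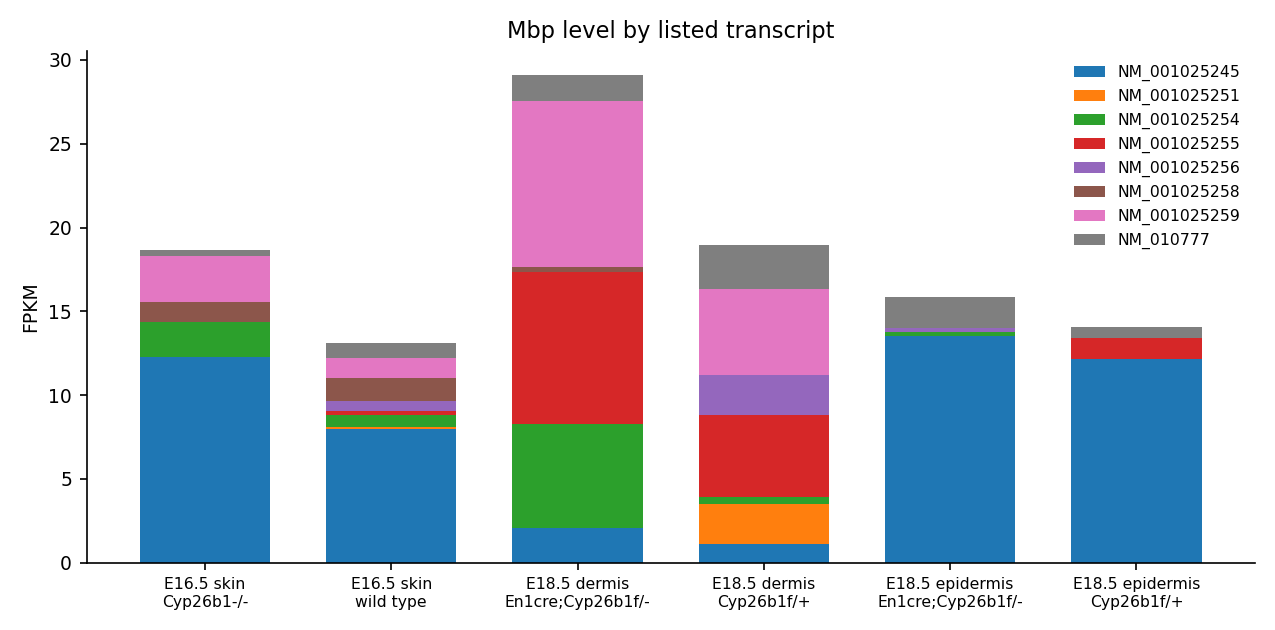
Mbp level in FPKM, stacked by the 8 listed RefSeq transcripts, in the 6 mutant and control columns. NM_001025245 (blue) fills most of the bar in E16.5 skin and E18.5 epidermis and 7.08% or less in E18.5 dermis, where NM_001025259 and NM_001025255 are the largest parts in both libraries.

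Of 34 other Schwann cell and myelin genes, 31 were tested at E16.5, of which 2 rose (6.45%) and 5 fell (16.1%). Among all 16303 tested genes, 8.05% rose and 10% fell. The median relative log2 fold was -0.08 over the 25 of the 34 genes with at least 1 FPKM. Pou3f1, a transcription factor of promyelinating Schwann cells that epidermis also expresses, fell to 5.28 FPKM in Cyp26b1-/- skin, against 17.1 FPKM in wild-type skin (adjusted p = 2.2e-28, from the authors' recentred statistic). Egr2, the factor that drives myelin genes and that hair follicles also use, fell to 1.93 FPKM, against 4.55 FPKM in wild-type skin (adjusted p = 1.9e-09 from the authors' recentred statistic). Fa2h, Gldn and Lama2 were the others that fell, with Lama2 at 12.7 FPKM in Cyp26b1-/- skin and 12.3 FPKM in wild-type skin, so that its fall is relative to the median gene alone. Gpr126, a receptor needed for myelination, rose to 5.85 FPKM, against 2.69 FPKM in wild-type skin (adjusted p = 0.00221 from the authors' recentred statistic). Pllp, which encodes the myelin protein plasmolipin, rose to 14.9 FPKM, against 6.1 FPKM in wild-type skin (adjusted p = 0.000737 from the authors' recentred statistic). The myelin genes Cnp and Mag and the receptor gene Erbb3 were not called. The authors' deposited table called 14 of the 31 higher and 2 lower, where 54.6% of the 16303 genes were called higher and 3.46% lower.

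Of the axon and neuron genes, 18 were tested, of which 7 rose (38.9%), 3 fell (16.7%) and 1 was called both ways. Among all tested genes, 8.05% rose and 10% fell. The neurofilament gene Nefl rose to 6.21 FPKM in Cyp26b1-/- skin, against 1.27 FPKM in wild-type skin. Nefm rose to 2.89 FPKM, against 0.4 FPKM in wild-type skin, and the neuronal tubulin gene Tubb3 rose to 15.1 FPKM, against 5.29 FPKM in wild-type skin. Uchl1, Snap25, Elavl4 and Pou4f1 rose as well. Genes of peptidergic sensory nerves went the other way: Calca, which encodes the neuropeptide CGRP, fell to 19.7 FPKM in Cyp26b1-/- skin, against 39.6 FPKM in wild-type skin, and Tac1, which encodes substance P, fell to 0.72 FPKM, against 1.36 FPKM in wild-type skin. Chl1 fell too. Retinal neurons are known to use the 7 genes that rose, and in the same columns 7 of 7 tested retina markers rose, with a sum over 10 markers of 19.1 FPKM in Cyp26b1-/- skin against 1.05 FPKM in wild-type skin. Their part in the rise of the axon genes was not tested.

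Of 24 ligands, receptors and guidance cues of skin nerves, 2 rose (8.33%) and 5 fell (20.8%) at E16.5. The shares over all tested genes were 8.05% and 10%. Sema3a, a repellent for sensory axons, rose to 15.2 FPKM, against 7.47 FPKM in wild-type skin, and the receptor gene Ntrk2 rose to 17.4 FPKM, against 9.17 FPKM in wild-type skin. Nrtn, a ligand of the GDNF family, fell to 11 FPKM in Cyp26b1-/- skin, against 23.3 FPKM in wild-type skin (adjusted p = 8.1e-11, from the authors' recentred statistic), and its receptor gene Gfra2 fell to 10 FPKM, against 13 FPKM in wild-type skin. Slit3 fell to 26.5 FPKM, against 29.7 FPKM in wild-type skin. Ntn1 fell relative to the median gene alone, with 40.5 FPKM in Cyp26b1-/- skin and 38.5 FPKM in wild-type skin. Ntf3 was called through 1 transcript listed at 0, while its sum was 7.09 FPKM in Cyp26b1-/- skin and 5.79 FPKM in wild-type skin.

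The E18.5 dermis comparison asks how the genes differ in the tissue that holds the nerves when Cyp26b1 is removed in En1cre cells. With 1 library a group there is no test, and a 2-fold relative difference was used to count genes. Of the 8 genes, 7 passed 1 FPKM in either library, and 2 were at least 2-fold higher and 0 at least 2-fold lower, where 14% of 13398 genes were 2-fold higher and 13.9% were 2-fold lower. Under 6 of the 8 other settings tried, 3 genes counted as higher. The shares over all genes are for the main setting alone. By the q of the authors' deposited table at 0.05, 0 of the 18 transcripts of the 8 genes were called, and the lowest q was 0.054 (an Mbp transcript). Among all 18473 tested transcripts in dermis, 4.01% were called by that q.

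Pmp22 differed most, with 115 FPKM in mutant dermis and 32.5 FPKM in control dermis, a relative log2 fold of 1.66. S100b followed, with 2.18 FPKM in mutant dermis and 0.44 FPKM in control dermis, a relative log2 fold of 1.02. Ncam1 lay just under the 2-fold line, with 23.6 FPKM in mutant dermis and 10.4 FPKM in control dermis (0.99). Of its transcripts, NM_001081445 had 19.4 FPKM in the mutant and 6.39 FPKM in the control, while NM_001113204 had 1.62 FPKM in the mutant and 3.38 FPKM in the control.

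Sox10 went the opposite way to these genes. It had 25.4 FPKM in mutant dermis and 45.5 FPKM in control dermis, a relative log2 fold of -0.94, and in control dermis it was the highest of the 8 genes. Ngfr had 43.2 FPKM in mutant dermis and 29.7 FPKM in control dermis (0.40), and Mbp had 29.1 FPKM in mutant and 18.9 FPKM in control dermis (0.47). Prx had 8.88 FPKM in mutant and 8.14 FPKM in control dermis (-0.01). Cdh19 stayed under 1 FPKM, at 0.26 FPKM in the mutant and 0.28 FPKM in the control.

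Folds depended on GC content in each comparison. Spearman's rho across genes was -0.33 in E16.5 skin, -0.27 in E18.5 dermis and 0.22 in E18.5 epidermis. Genes were sorted into 10 classes by the GC of their GENCODE transcripts. Set against their own class at E16.5, Sox10 had a log2 fold of -0.04 and Ngfr 0.34. In dermis the median relative log2 fold was lowest, at -0.82, in the class of highest GC, which holds Sox10 and Ngfr. It was highest, at 0.41, in the class that holds Pmp22 and S100b. Set against genes of the same GC class in dermis, Sox10 had a log2 fold of -0.12, Ngfr 1.22, Pmp22 1.26, S100b 0.62 and Ncam1 0.62. The genes past 2-fold were then Pmp22 and Ngfr. The share of all genes past 2-fold within their GC class is not given here.

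Markers of other cells moved with the dermis groups. Muscle markers were higher in 11 of 11 measured genes, with a sum of 4998 FPKM in mutant and 1822 FPKM in control dermis, and fibroblast markers were higher in 8 of 9, with a sum of 7622 FPKM in the mutant and 2447 FPKM in the control, leaving out 3 collagen genes with failed estimates. Endothelial markers were higher in 8 of 10, with a sum of 528 FPKM in the mutant and 404 FPKM in the control. Of these markers 6 were at least 2-fold higher, where 14% of all genes were. Adipocyte markers were lower in 8 of 10, with a median relative log2 fold of -2.05 and a sum of 416 FPKM in the mutant and 478 FPKM in the control. Keratinocyte markers were lower in 12 of 12, with a sum of 4995 FPKM in the mutant and 16483 FPKM in the control. Melanocyte markers, which share Sox10 with Schwann cells, were higher in 4 and lower in 6 of 10, with Dct at 51.7 FPKM in the mutant and 120.4 FPKM in the control. The part of these cells in the values of the 8 genes was not tested. In such bulk samples, fewer cells of a type and less RNA per cell cannot be told apart.

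**Figure D4:**
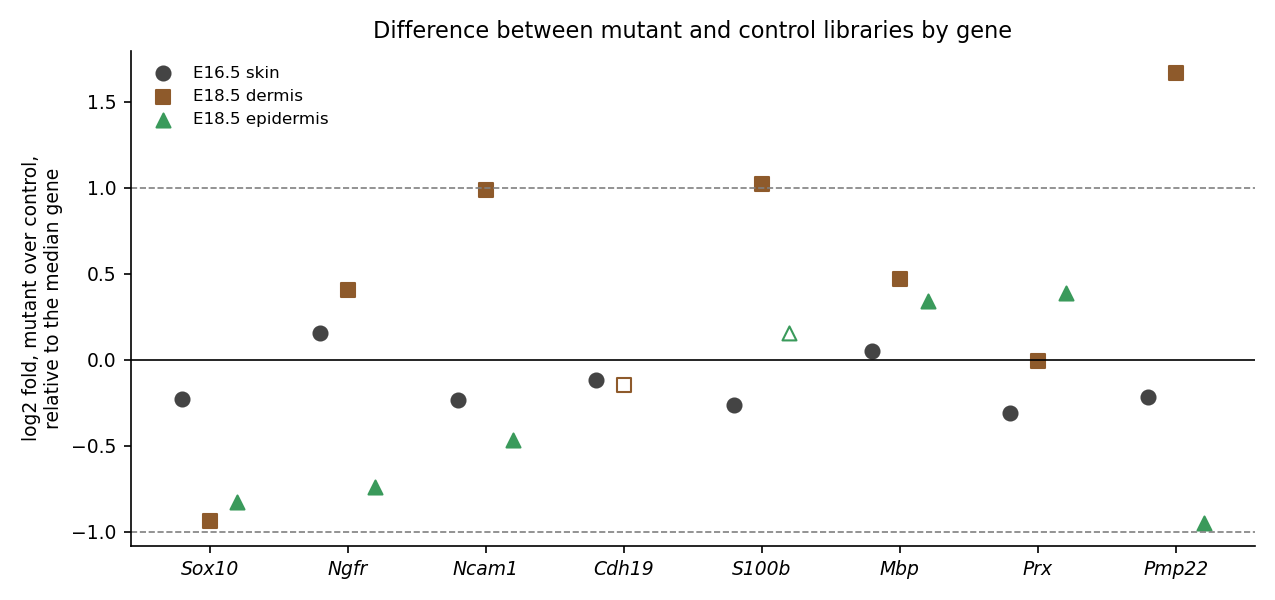
Log2 fold of mutant over control relative to the median gene for each of the 8 genes, in E16.5 whole skin (circles), E18.5 dermis (squares) and E18.5 epidermis (triangles). Open symbols mark genes under 1 FPKM in both columns, Cdh19 in the epidermis is left out because both values are 0, and dashed lines mark 2-fold. The circles lie within 0.31 of 0, and Pmp22 spans from 1.66 in dermis to -0.95 in epidermis.

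Over all genes that passed 1 FPKM in dermis, 14% were 2-fold higher and 13.9% were 2-fold lower. Among the other Schwann cell and myelin genes in dermis, 26 passed 1 FPKM, with a median relative log2 fold of 0.35. Of these 26, 6 were at least 2-fold higher (23.1%) and 5 at least 2-fold lower (19.2%). The higher ones included Postn, at 237 FPKM in the mutant and 63.9 FPKM in the control, the laminin gene Lama2, at 15.7 FPKM in the mutant and 3.99 FPKM in the control, and Mal and Fabp7. Fibroblast and muscle markers were also higher in mutant dermis, and their part in these values was not tested. The lower ones were Pou3f1, at 8.95 FPKM in the mutant and 66.3 FPKM in the control, and Fa2h, Egr2, Itga6 and Erbb3, genes that skin epithelium also expresses. Erbb3 stood at 62.1 FPKM in mutant and 48.8 FPKM in control epidermis, and Pou3f1 at 46.8 FPKM in mutant and 51.9 FPKM in control epidermis. Egr2 had 9.7 FPKM in mutant and 9.14 FPKM in control epidermis. Fa2h had 2.48 FPKM in mutant and 2.96 FPKM in control epidermis, below its 13.4 FPKM in control dermis. Itga6 had 0.37 FPKM in mutant and 3.78 FPKM in control epidermis, below its 21.25 FPKM in control dermis. The part of epithelium in the lower values was not tested. Cnp and Mag, both of myelin, had relative log2 folds of 0.55 and 0.68 in dermis. Of the axon genes 8 passed 1 FPKM, and 2 were at least 2-fold higher and 1 at least 2-fold lower. Calca had 14.1 FPKM in mutant dermis and 1.7 FPKM in control dermis, Stmn2 had 9.97 FPKM in the mutant and 2.34 FPKM in the control, and Tubb3 had 2.02 FPKM in the mutant and 12.5 FPKM in the control. Of the neurotrophic genes 22 passed, with 4 at least 2-fold higher, among them Ntf3, Ntrk3 and Edn3, and with Nrtn, Ntf5 and Sema3f at least 2-fold lower.

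**Figure D5:**
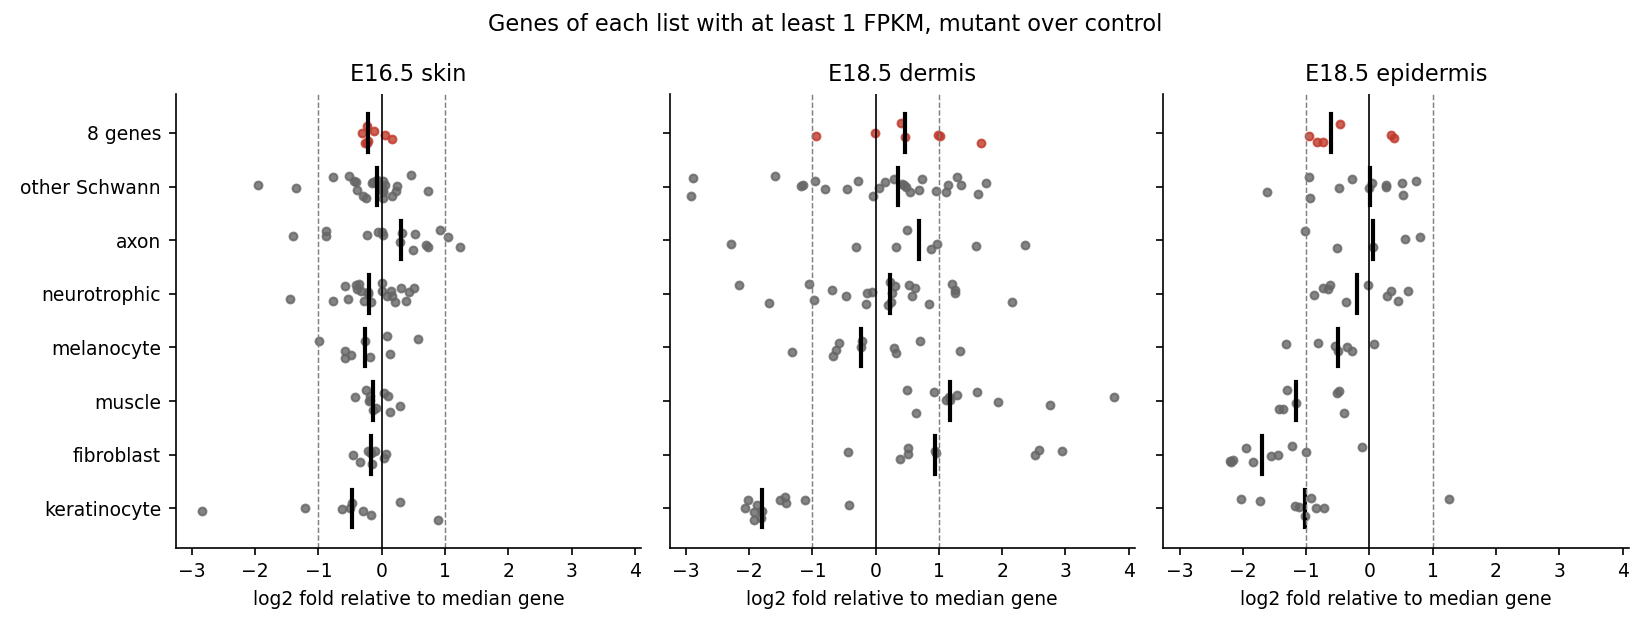
Relative log2 fold of mutant over control for genes with at least 1 FPKM in either column, by gene list, in E16.5 skin, E18.5 dermis and E18.5 epidermis. Points are genes, black ticks list medians and dashed lines 2-fold. The 8 genes have medians of -0.22, 0.47 and -0.60, and muscle and fibroblast lists lie to the right in dermis and to the left in epidermis.

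The E18.5 epidermis comparison shows the same genes where nerves are sparse. Of the 8 genes 6 passed 1 FPKM in either library, and 0 were 2-fold higher and 0 were 2-fold lower, where 3.49% of 11362 genes were 2-fold higher and 4.86% were 2-fold lower. With a pseudocount of 0.1, 4 of them were at least 2-fold lower. The shares over all genes were counted at a pseudocount of 1, and those at 0.1 are not given here. By the q of the authors' deposited table at 0.05, 0 of the 9 tested transcripts were called, and the lowest q was 0.129 (Ngfr). Among all 15934 tested transcripts in epidermis, 4.73% were called by that q.

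Pmp22 had 0.34 FPKM in mutant epidermis and 1.93 FPKM in control epidermis (-0.95), and Sox10 had 1.93 FPKM in the mutant and 4.89 FPKM in the control (-0.83). Ngfr had 0.31 FPKM in the mutant and 1.48 FPKM in the control (-0.74), and Ncam1 had 0.35 FPKM in the mutant and 1.11 FPKM in the control (-0.47). Mbp had 15.8 FPKM in the mutant and 14.1 FPKM in the control (0.34), and Prx had 2.45 FPKM in the mutant and 1.99 FPKM in the control (0.38). S100b was at 0.1 FPKM in the mutant and 0.12 FPKM in the control. Of the other Schwann cell genes 12 passed 1 FPKM, and 1, Itga6, was at least 2-fold lower, at 0.37 FPKM in the mutant and 3.78 FPKM in the control. Of 5 axon genes 1 was at least 2-fold lower, Dpysl3, and of 10 neurotrophic genes 0 reached 2-fold. Over all genes in epidermis 3.49% were 2-fold higher and 4.86% were 2-fold lower.

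The 4 genes with lower values stood beside lower values of dermal markers in the same library. Fibroblast markers were lower in 10 of 10 measured genes, with a sum of 127 FPKM in mutant and 477 FPKM in control epidermis, and Col1a1 had 27.7 FPKM in the mutant and 149 FPKM in the control. Keratinocyte markers were lower too, in 8 of 9, with a sum of 2613 FPKM in the mutant and 6136 FPKM in the control, leaving out 3 genes with failed estimates. Melanocyte markers were lower in 6 of 7, with a sum of 23.6 FPKM in the mutant and 47.9 FPKM in the control. The melanocyte gene Dct stood at 12.8 FPKM in the mutant and 21.1 FPKM in the control, where the Schwann cell gene Cdh19 was listed at 0 in both. The part of these cells in the lower values was not tested.

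Between the tissues of 1 genotype, 7 of the 8 genes had over 3 times the FPKM in dermis or were listed at 0 in epidermis. The dermis and epidermis tables were normalised separately, so these ratios are approximate, and ratios against values under 1 FPKM rest on very little signal. A higher value in dermis was not particular to these genes. The keratinocyte genes Krt5 and Krt14 had 6265 and 4276 FPKM in control dermis, and 2634 and 1496 FPKM in control epidermis. Ivl, also of keratinocytes, went the other way, at 7.62 FPKM in control dermis and 334 FPKM in control epidermis. The part of epithelium in the dermis libraries was not tested. In mutant tissue, dermis over epidermis was 337-fold for Pmp22, 139-fold for Ngfr, 67.5-fold for Ncam1, 21.8-fold for S100b, 13.2-fold for Sox10 and 3.62-fold for Prx. In control tissue it was 16.9-fold for Pmp22, 20.1-fold for Ngfr, 9.37-fold for Ncam1, 3.67-fold for S100b, 9.3-fold for Sox10 and 4.09-fold for Prx. Mbp was the exception, at 1.84-fold in mutant and 1.35-fold in control tissue, with the different transcripts described above. For Pmp22, Ngfr and Ncam1 the wider ratio in the mutant combines higher values in dermis with lower values in epidermis.

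Likeness over the 6 columns was described by Pearson's r of log2(FPKM + 1), which has 6 points drawn from 3 separately normalised tables and carries no test. The genes most like Sox10 among 9128 candidates included Ppp1r9b and Card10, each with r of 1.00 to 2 decimals. Card10 had 8.69 FPKM in Cyp26b1-/- skin and 6.73 FPKM in wild-type skin, and 20.6 FPKM in mutant dermis and 37.7 FPKM in control dermis. The 3 most like Mbp were Fam96b, Stx4a and Gsk3a, each with r of 0.97. Among the other 7 genes, r with Sox10 ran from 0.24 for Cdh19 to 0.92 for Prx.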

How the data were processed

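RNA from 8 mouse skin libraries was analysed from 3 tables of transcripts. The genome build was mm9, and the tools named were Cuffdiff 1.3.0, Cufflinks, TopHat 1.3.2 and Bowtie 0.12.7.0, per the submitters' processing notes. Whether reads were counted by strand is not stated there. Values deposited by the authors are FPKM, normalised for length and library size, pool 2 libraries per E16.5 column, and hold 1 library per E18.5 column, per the file headers. The deposited log2 fold (mutant over control), the statistic (a score of opposite sign), the p-value and the q-value are the authors' own. The SE was taken as the deposited log2 fold divided by the statistic and is that of Cuffdiff's model, with a median of 0.17 at E16.5. Locus starts had 1 added.

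FPKM were summed per symbol with a pseudocount of 1, and genes needed 1 FPKM in either column and no failed estimate (465 symbols had one at E16.5, none of the 8). At E16.5 the normal p, both tails, of the recentred statistic was adjusted by Benjamini-Hochberg. This adjustment took in the tested transcripts with a finite fold and a finite statistic other than 0. The remaining tested transcripts, among them some at 0 FPKM in 1 column, kept the authors' q. A gene was called when its called transcripts went 1 way. The procedure was tested on simulated data. The simulated noise was drawn from the implied SE, so the simulation does not check that SE. Alternatives changed the pseudocount, the centring (also within classes of GC), the filter, the fold limit and the limit on the adjusted p, or used the authors' q. The 8 genes, the lists and the tests were chosen with earlier results of these data known, and the retina list was written after the data had been seen. Named were all 8 genes, called or 2-fold members of the other lists, and the 3 genes most like Sox10 and Mbp; the unchanged values of list members beside them were named after they were seen. Some genes that this rule takes in are counted but not reported here by name. GC came from GENCODE vM1 for 94.9% of genes. Python 3.11.15, pandas 2.3.3 and scipy 1.17.1 were used.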

Additional observations from a re-analysis of the deposited data

Results flagged for a closer look

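Ngfr, Ncam1 and Pmp22 had relative log2 folds of opposite sign in the E18.5 tissues, both on the authors' scaling and after centring, which is what singled them out. Ngfr stood at 0.40 in dermis and -0.74 in epidermis, Ncam1 at 0.99 in dermis and -0.47 in epidermis, and Pmp22 at 1.66 in dermis and -0.95 in epidermis. The epidermis folds rest on low values, with Ngfr at 0.31 FPKM in the mutant and 1.48 FPKM in the control. Ncam1 had 0.35 FPKM in mutant and 1.11 FPKM in control epidermis, and Pmp22 had 0.34 FPKM in the mutant and 1.93 FPKM in the control. The difference between the tissues was not tested, since each value rests on 1 mutant and 1 control library. Dermis and epidermis are not labelled as from the same embryos, so tissue and embryo cannot be told apart. Fibroblast and muscle markers had opposite directions in the same libraries, with medians of 0.93 and 1.18 in dermis and -1.70 and -1.16 in epidermis, and their part was not tested.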

How the results depend on the processing

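No paired analysis was possible because the deposited columns carry no separate replicates, and for the same reason no library could be left out. With the authors' deposited q in place of the recentred statistic, 1 of the 8 genes rose at E16.5 (Ngfr) and 0 fell, and at an adjusted p of 0.01, 0 fell. Over all genes, 1312 rose and 1638 fell by the recentred statistic, and 8909 and 564 by the authors' q. In dermis the count of 2-fold higher genes was 3, with Ncam1 added, at a pseudocount of 0.1 or 0.5, without centring, centred on genes of at least 10 FPKM and with no filter in the median, against 2 in the Results; at 1.5-fold it was 3, and 1 gene was lower (Sox10). In epidermis the count of 2-fold lower genes was 4 with a pseudocount of 0.1, 2 with a pseudocount of 0.5, 2 without centring, 1 when centred on genes of at least 10 FPKM, 1 with no filter in the median and 3 at 1.5-fold, against 0 in the Results. The shares of all genes past the fold limit under these dermis and epidermis settings are not given here. Of the E16.5 folds of single genes, 15 of 56 alternative values moved by more than the implied SE, of the dermis folds 2 of 49 (Sox10 and Ngfr, by GC) and of the epidermis folds 2 of 42. Without centring at E16.5, all 8 genes had positive log2 folds, 6 of which were negative after centring. The cause of these shifts was not tested. With 1 library a group and unknown depth, low values such as those of Cdh19 and S100b limit what can be read.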
